A study of Caenorhabditis elegans with 16 samples.

Results

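Small RNAs of animals that carry both met-2(n4256) and set-25(n5021), called met-2 set-25 from here on, were compared with those of wild type in young adult Caenorhabditis elegans hermaphrodites, over 8 of the 16 libraries of the series. The members were taken by genotype from the sample titles, 1 library for each background in each of 4 states of hrde-1. In the met-2 set-25 background these were animals in which hrde-1 had never been mutant, animals carrying hrde-1(tm1200), and animals at generation F5 and at generation F20 after the hrde-1 mutation had been repaired. The wild-type libraries were N2, hrde-1(tm1200), and repaired animals at the same generations F5 and F20. Repaired animals of both backgrounds therefore descend from hrde-1 mutants. Each genotype had a single library, so the 4 states served as 4 pairs, and no p-value measures the spread between cultures of a strain. The exact permutation tests rest on the spread between these pairs alone. The p-values of limma rest on that spread and also borrow from the spread of all tested bins. The other 8 libraries carry set-32 mutations and appear here in a single comparison and in an alternative fit of all 16 libraries.

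MET-2 and SET-25 are methyltransferases of histone H3 lysine 9 (H3K9), a mark of heterochromatin that anchors chromosome arms at the nuclear periphery. In the C. elegans germline, secondary siRNAs, which RNA-dependent RNA polymerases make on target transcripts, are loaded on the nuclear Argonaute HRDE-1, which directs silencing and H3K9 methylation at its target genes. Small RNA levels in the double mutant show how small RNAs, siRNAs among them, stand when both of these enzymes are mutated. These libraries do not measure H3K9 methylation itself. Libraries were made by a cloning method that does not need a 5′ monophosphate, which takes in such siRNAs.

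Levels were given as RPKM in bins of 1000 bases, without read strand or length, so siRNAs, piRNAs and fragments of longer RNA in a bin add up. A single read was worth 1.76 to 6.30 RPKM in the met-2 set-25 libraries and 1.45 to 2.76 RPKM in the wild-type libraries, and the shallowest library was met-2 set-25 at F5, in which 3 reads correspond to 18.9 RPKM. That library also stood apart in its somatic signal. Over 8 intestine markers, the vitellogenin genes, elt-2 and ges-1, it summed to 616 RPKM, against 6343 to 8703 RPKM in the other met-2 set-25 libraries and 4414 to 12430 RPKM in wild type. Nearly all of these sums came from the vitellogenin genes. The gene elt-2 held 1.18 RPKM in the F5 library of met-2 set-25, within the 0.24 to 2.06 RPKM of the others of that background. At ges-1 no library passed 7.58 RPKM. Over 8 hypodermis markers the F5 library of met-2 set-25 summed to 35.3 RPKM, against 570 to 970 RPKM in the other met-2 set-25 libraries and 457 to 1268 RPKM in wild type. Among these, bli-1 was at 0 in the F5 library of met-2 set-25 and in none of the other 7 libraries. The genes dpy-7, dpy-13 and rol-6 were at 0 there but also at 0, 0.23 and 0 RPKM in F5 of wild type. Most of each hypodermis sum came from col-19, col-119 and col-140. The gene sqt-3 held 6.58 RPKM in the F5 library of met-2 set-25, within the 3.3 to 8.36 RPKM of the others of that background. Over 7 muscle markers the sum was 205 RPKM, against 412 to 792 RPKM in the other met-2 set-25 libraries and 388 to 1632 RPKM in wild type. The muscle markers were not all low there. Levels of 28.4 RPKM at mlc-2 and 18.9 RPKM at unc-27 lay within the range of the other met-2 set-25 libraries. At lev-11 it was 60.2 RPKM, against 66.2 to 85.8 RPKM in those libraries, and at unc-54 66.0 RPKM, against 200 to 416 RPKM. In whole animals, fewer cells of a type and less small RNA per cell cannot be told apart. Counts are also given without the F5 pair. The library names carry different prefixes in the never mutant pair and a shared prefix within each of the other 3 pairs.

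Of 25307 bins averaging 5 RPKM or more over the 8 libraries, limma called 165 bins higher in met-2 set-25, which is 0.652% of those tested, and 123 bins lower, which is 0.486%, together 1.14% (Benjamini-Hochberg adjusted p under 0.05). With each library centred on its median the split was 169 higher and 210 lower. The median of all bins was 0.10 as deposited and −0.02 after that centring, both on the log2 scale. The called bins formed 125 higher regions and 80 lower regions, of which 97 and 55 were a single bin. Their sizes were alike in both directions, with a median log2 difference of 2.11 for the higher bins and −2.13 for the lower bins. Higher bins had a median level of 53.2 RPKM in met-2 set-25 and 7.02 RPKM in wild type, and lower bins had 6.09 RPKM in met-2 set-25 and 49.1 RPKM in wild type. Over all tested bins these medians were 14.3 RPKM in met-2 set-25 and 12.9 RPKM in wild type. All 4 wild-type libraries lay under 10 RPKM in 60 of the higher bins, and all 4 met-2 set-25 libraries lay under 10 RPKM in 55 of the lower bins.

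**Figure D1:**
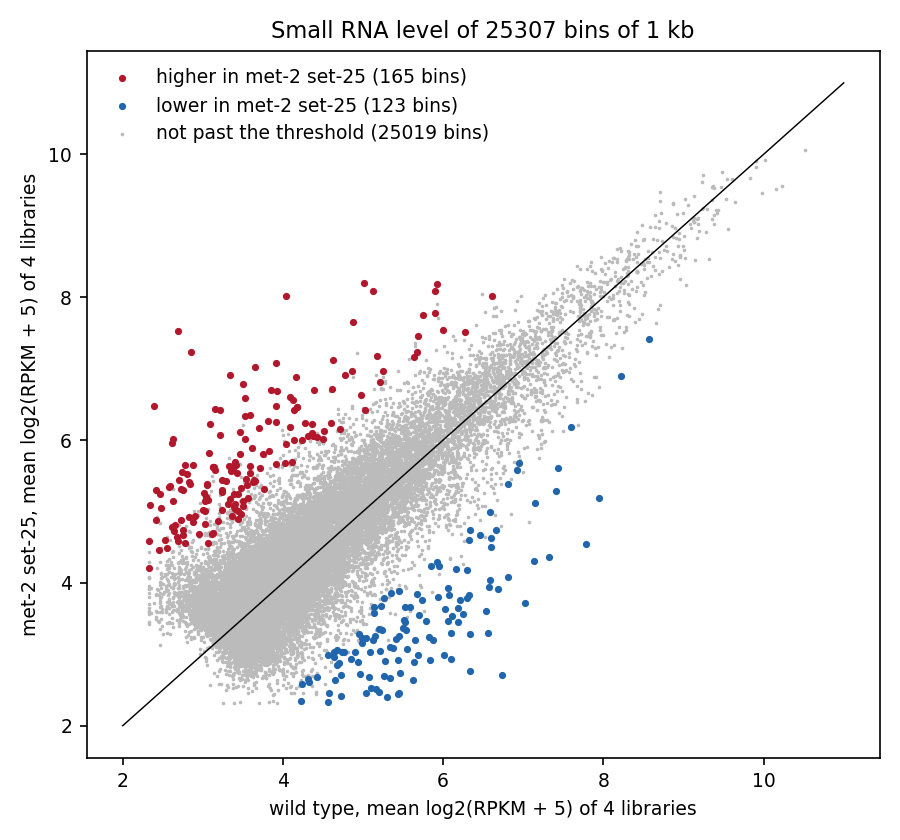
Mean log2(RPKM + 5) of each tested bin over the 4 met-2 set-25 libraries (vertical axis) against that over the 4 wild-type libraries (horizontal axis), with the line of equal levels. The 165 bins called higher (red) and the 123 called lower (blue) lie mostly at low levels of the background in which they were reduced.

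The libraries of the backgrounds did not overlap in 125 of the 165 higher bins, that is 75.8%, where 4.41% of all bins had every met-2 set-25 library above every wild-type library. They did not overlap in 97 of the 123 lower bins, that is 78.9%, against 1.85% of all bins in that direction. Every higher bin and 122 of the 123 lower bins had the same sign in all 4 pairs, against 21.4% of all tested bins, and the calls rest on these same pairs. Without the F5 pair a separate fit of 25684 bins called 30 higher, 0.117%, and 40 lower, 0.156%. Of the 165 higher and 123 lower bins, 30 and 38 were called in that fit too. Counts also moved with the other pairs, to 94 higher and 84 lower without the never mutant pair, whose library names differ in prefix, 264 and 156 without the hrde-1 mutant pair, and 28 and 25 without the F20 pair.

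The bin with the largest increase overlapped Y110A2AL.1 and the non-coding RNA gene Y110A2AL.17 on the left arm of chromosome II (II:2876001-2877000). It held 132, 129, 315 and 193 RPKM in the never mutant, hrde-1 mutant, F5 and F20 libraries of met-2 set-25, against 1.45, 2.16, 0 and 2.45 RPKM in those of wild type. All met-2 set-25 libraries were high and all wild-type libraries were at about 1 read or below, with a log2 difference of 4.84 ± 0.35 (moderated SE of limma, 4 pairs; limma adjusted p = 0.000293). Libraries are given in this order of states throughout. Each SE at a locus is of this moderated kind, drawn towards the spread of all tested bins. It can be smaller than the spread between the pairs at that locus. At col-87, a cuticle collagen gene (II:14090001-14091000), met-2 set-25 libraries held 32.5, 70.9, 247 and 81.6 RPKM, against 0.30, 0.43, 0.07 and 0.11 RPKM in wild type. The groups were again fully separate, with a log2 difference of 4.09 ± 0.42 (limma adjusted p = 0.00174).

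The gene seld-1, which codes for selenophosphate synthetase, gained small RNAs over 4 neighbouring bins that reach into afmd-2 (IV:13506001-13510000). Its leading bin held 274, 214, 297 and 237 RPKM in met-2 set-25, against 7.83, 46.1, 8.82 and 3.01 RPKM in wild type. The groups did not overlap, the hrde-1 mutant was the highest of the wild-type libraries, and the log2 difference was 3.98 ± 0.42 (limma adjusted p = 0.00185). The bin before the region held at most 9.40 RPKM in any library, and the bin after it, which overlaps afmd-2 and puf-3, held 64.2 to 145 RPKM in met-2 set-25 and 29.1 to 100.01 RPKM in wild type.

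At pnc-1, the gene of a nicotinamidase of the NAD+ salvage pathway, 4 bins rose together (IV:189001-193000). The leading bin held 37.5, 155, 334 and 58.2 RPKM in met-2 set-25, against 2.95, 15.3, 14.1 and 0.32 RPKM in wild type. Every met-2 set-25 library was above every wild-type library (log2 difference 3.28 ± 0.34, limma adjusted p = 0.00185). The widest higher region covered 6 bins of citk-1, a gene related to citron kinases of cytokinesis (II:13909001-13915000). Its leading bin held 48.4, 226, 265 and 94.8 RPKM in met-2 set-25, against 2.90, 77.7, 5.58 and 2.44 RPKM in wild type. Here the groups overlapped through a single library, the wild-type hrde-1 mutant, which was higher than met-2 set-25 with hrde-1 never mutant, and the log2 difference was 3.16 ± 0.44 (limma adjusted p = 0.00683).

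A region of 5 bins lay in cdh-1, a cadherin gene (III:2926001-2931000). In its leading bin met-2 set-25 held 70.8, 30.5, 340.1 and 118 RPKM, against 4.35, 0, 41.4 and 19.5 RPKM in wild type. Both backgrounds were lowest in the hrde-1 mutant and highest at F5, and the groups overlapped although met-2 set-25 was higher in each pair (log2 difference 2.77, limma adjusted p = 0.00185). The smaller regions of 3 bins in pde-1, a cyclic nucleotide phosphodiesterase gene, and of 2 bins in mihp-1, T23F4.2, T22C8.3 and dyf-3 rose as well. At mihp-1 met-2 set-25 held 87.5, 44.6, 107 and 105 RPKM, against 2.90, 4.32, 3.37 and 4.95 RPKM in wild type, with no overlap (log2 difference 3.29 ± 0.33, limma adjusted p = 0.00174).

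Among the other leading increases, T23F4.2 and C55C3.7 were near 0 in all wild-type libraries. T23F4.2 held 108, 23.5, 94.5 and 49.2 RPKM in met-2 set-25, against 2.91, 0, 0 and 2.46 RPKM in wild type (log2 difference 3.38 ± 0.37, limma adjusted p = 0.00185). C55C3.7 held 31.7, 77.4, 56.7 and 75.5 RPKM in met-2 set-25, against 0, 2.16, 2.76 and 0 RPKM in wild type (log2 difference 3.35 ± 0.33, limma adjusted p = 0.00172). Neither locus had overlapping groups. A different pattern was seen at madf-10, a gene of the MADF domain family, where met-2 set-25 held 199, 68.0, 113 and 114 RPKM, against 1.45, 60.4, 0 and 0 RPKM in wild type. The hrde-1 mutant was high in wild type too, close to the met-2 set-25 hrde-1 mutant, and the log2 difference was 3.57 ± 0.65 (limma adjusted p = 0.0256). Without the F5 pair the adjusted p at madf-10 was 0.167, and at T28B8.1 and T22C8.3 it was 0.0959 and 0.0503, so these were not called in that fit. The other 9 of the 12 leading increases were.

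In the fit without the F5 pair, the leading increases not yet named were K10D3.4, M04C9.3, F29C6.1, dyf-3, plep-1 and a bin with no gene on chromosome V (V:9687001-9688000). At dyf-3, which acts in the assembly of sensory cilia, met-2 set-25 held 91.2, 75.5, 113 and 88.2 RPKM, against 24.7, 6.48, 5.52 and 0 RPKM in wild type. The groups were separate, with a log2 difference of 2.91 ± 0.46 over those 3 pairs (limma adjusted p = 0.0465). F29C6.1 was even across the met-2 set-25 states, at 70.8, 56.3, 56.9 and 65.7 RPKM, against 0, 6.48, 5.52 and 7.37 RPKM in wild type, with a log2 difference of 2.95 ± 0.39 over the 3 pairs (limma adjusted p = 0.0259).

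**Figure D2:**
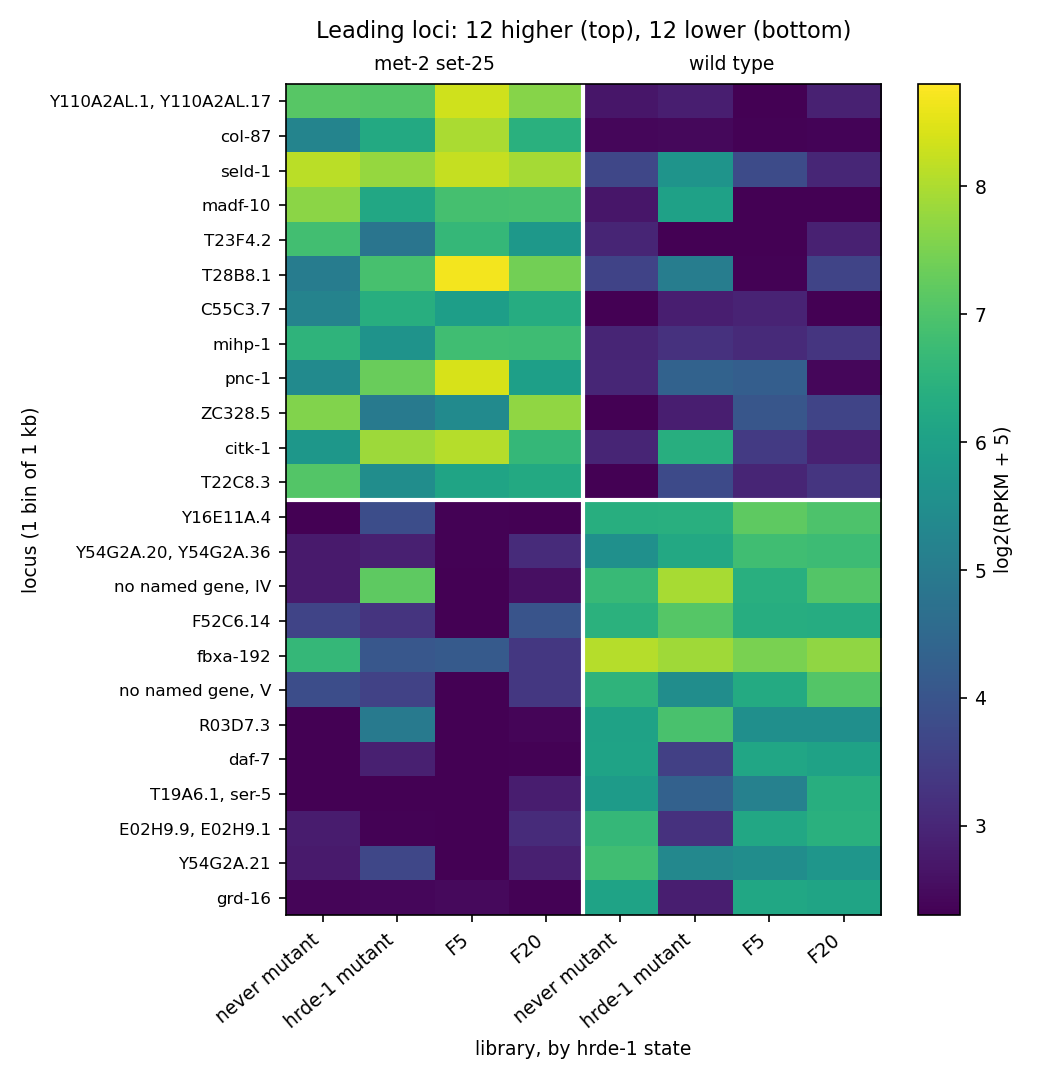
log2(RPKM + 5) in each library (columns, met-2 set-25 left and wild type right, by hrde-1 state) at the leading bin of the 12 regions with the largest increase (top) and the 12 with the largest decrease (bottom). The wild-type hrde-1 mutant differs from the other wild-type libraries at madf-10 and citk-1, where it is high, and at daf-7, E02H9.9 and grd-16, where it is low.

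The largest decrease lay at Y16E11A.4, in a region of 3 bins on the left arm of chromosome II that also overlaps math-44, a gene of the MATH domain family, and the long non-coding RNA gene linc-46 (II:1988001-1991000). The leading bin held 0, 9.38, 0.06 and 0 RPKM in met-2 set-25, against 77.6, 79.5, 141 and 122 RPKM in wild type. Small RNA was near 0 in 3 met-2 set-25 libraries and low in the hrde-1 mutant, with no overlap (log2 difference −4.03 ± 0.39, limma adjusted p = 0.00172).

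On the left arm of chromosome IV, 5 bins over Y54G2A.20 and Y54G2A.36 fell (IV:2896001-2901000), and 2 further bins fell at Y54G2A.21 (IV:2913001-2915000). All of these bins overlap annotated pseudogenes. The leading bin of the wider region held 1.86, 2.35, 0.03 and 3.52 RPKM in met-2 set-25, against 42.1, 69.1, 108 and 103 RPKM in wild type. The groups were far apart (log2 difference −3.56 ± 0.35, limma adjusted p = 0.00172). The neighbouring Y54G2A.19, 2 bins before the region, held 91.6 to 359.9 RPKM in met-2 set-25 and 88.8 to 253 RPKM in wild type, so its groups overlapped.

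F52C6.14, a pseudogene on the left arm of chromosome II (II:1932001-1933000), held 7.45, 4.69, 0 and 10.8 RPKM in met-2 set-25, against 82.7, 132, 77.3 and 75.7 RPKM in wild type. The separation was complete (log2 difference −3.26 ± 0.35, limma adjusted p = 0.00185). On the left arm of chromosome III a run of 5 bins over H09G03.1, H09G03.4 and H09G03.5, all of which overlap long non-coding RNA genes, also fell (III:3227001-3232000). Its leading bin held 9.31, 2.35, 3.15 and 3.38 RPKM in met-2 set-25, against 78.7, 49.7, 40.6 and 51.1 RPKM in wild type. No library overlapped (log2 difference −2.67 ± 0.30, limma adjusted p = 0.00239), and the call held without the F5 pair (adjusted p = 0.0203).

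The leading decreases of the fit without the F5 pair that were not among the 12 largest were at osm-3, H09G03.5, H04D03.7 and bins with no named gene on chromosomes I, IV and V. At osm-3, the gene of a kinesin of sensory cilia (IV:3797001-3798000), met-2 set-25 held 7.45, 4.69, 37.8 and 24.6 RPKM, against 133, 166, 152 and 97.9 RPKM in wild type. The groups were separate, and within met-2 set-25 the repaired libraries were the higher ones (log2 difference −3.14 ± 0.44 over the 3 pairs, limma adjusted p = 0.0306). At T19A6.1, in a bin that ser-5, a serotonin receptor gene, overlaps too (I:8386001-8387000), met-2 set-25 held 0, 0, 0 and 2.07 RPKM, against 53.7, 15.1, 30.4 and 78.2 RPKM in wild type. Each wild-type library was above it (log2 difference −2.99 ± 0.36, limma adjusted p = 0.00326).

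The widest lower region, of 7 bins, lay over fbxa-192, an F-box gene on the right arm of chromosome V (V:17642001-17649000). F-box proteins are substrate adaptors of ubiquitin ligases, and the family is large and partly duplicated, so reads may be shared between copies. The match of bins to genes was also not settled in this stretch of chromosome V, and the name is less certain. Its leading bin held 94.0, 11.7, 12.6 and 5.27 RPKM in met-2 set-25, against 266, 229, 174 and 205 RPKM in wild type. The never mutant library kept the most small RNA within met-2 set-25, and the groups were separate (log2 difference −3.24 ± 0.41, limma adjusted p = 0.00445).

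A region of 4 bins in the chromosome IV piRNA cluster differed between states (IV:6006001-6010000), where the leading bin overlaps an annotated piRNA gene and the other 3 bins overlap no gene. Its leading bin held 1.86, 141, 0 and 0.90 RPKM in met-2 set-25, against 97.7, 242, 80.1 and 128 RPKM in wild type. In both backgrounds the hrde-1 mutant was the highest library, and through it the groups overlapped (log2 difference −3.31 ± 0.52, limma adjusted p = 0.0120). Without the F5 pair the adjusted p was 0.108.

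The R03D7 locus on chromosome II changed in opposite directions over a few bins. Over R03D7.2, a known target of nuclear RNAi (II:10934001-10935000), met-2 set-25 held 160, 178, 88.2 and 126 RPKM, against 8.70, 53.2, 22.1 and 12.21 RPKM in wild type. Over the pseudogene R03D7.3 (II:10937001-10938000) met-2 set-25 held 0, 25.8, 0 and 0.21 RPKM, against 60.9, 117, 41.5 and 41.7 RPKM in wild type. Neither bin had overlapping groups, with log2 differences of 2.49 ± 0.36 at R03D7.2 (limma adjusted p = 0.00799) and −3.02 ± 0.35 at R03D7.3 (limma adjusted p = 0.00290).

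At several lower loci, small RNA was low in met-2 set-25 in every state and also in the wild-type hrde-1 mutant. The gene daf-7 codes for a TGF-beta ligand that controls dauer entry (III:813001-814000). It held 0, 2.35, 0 and 0.03 RPKM in met-2 set-25, against 62.4, 6.48, 66.3 and 61.1 RPKM in wild type. The repaired wild-type libraries were close to N2, and no met-2 set-25 library reached the wild-type hrde-1 mutant (log2 difference −2.99 ± 0.50, limma adjusted p = 0.0174).

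The same order was seen at E02H9.9 and E02H9.1 (III:2468001-2469000), with 1.92, 0.05, 0 and 3.51 RPKM in met-2 set-25, against 93.6, 4.32, 69.0 and 80.8 RPKM in wild type (log2 difference −2.98 ± 0.47, limma adjusted p = 0.0121). It recurred at grd-16, a hedgehog-related gene (IV:2480001-2481000), with 0.26, 0.31, 0.56 and 0.05 RPKM in met-2 set-25, against 61.6, 2.19, 67.0 and 63.5 RPKM in wild type (log2 difference −2.89 ± 0.52, limma adjusted p = 0.0247). A further case was eri-6, whose product acts in the ERGO-1 small RNA pathway (I:4467001-4468000), with 5.59, 0, 6.30 and 1.76 RPKM in met-2 set-25, against 122, 6.48, 53.4 and 77.1 RPKM in wild type (log2 difference −2.69 ± 0.42, limma adjusted p = 0.0118). At all 4 loci the wild-type hrde-1 mutant was the lowest library of its background, and the groups did not overlap. The gap to that library, where 1 read is worth 2.16 RPKM, was a few reads or less. At eri-6 the highest met-2 set-25 value, 6.30 RPKM at F5, is 1 read, against 6.48 RPKM in the wild-type hrde-1 mutant. The values were 3.51 against 4.32 RPKM at E02H9.9 and 0.56 against 2.19 RPKM at grd-16. Separation from the wild-type hrde-1 mutant is thus hardly resolved at these loci. The adjusted p-values without the F5 pair were 0.132 at daf-7, 0.104 at E02H9.9, 0.157 at grd-16 and 0.0670 at this eri-6 bin.

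The wild-type hrde-1 mutant lay over 1 log2 unit below the mean of the other wild-type libraries in 32 of the 123 lower bins, that is 26%, and in 19 of the 165 higher bins, 11.5%, against 5.89% of all tested bins. In these 32 lower bins the median level was 4.24 RPKM in met-2 set-25, against 10.8 RPKM in the wild-type hrde-1 mutant and 58.6 RPKM in the other wild-type libraries. It lay over 1 log2 unit above the other wild-type libraries in 27 of the 165 higher bins, 16.4%, and in 15 of the 123 lower bins, against 6.66% of all bins. The called bins thus exceeded the share of all bins in both directions. As wild-type libraries enter both quantities, these shares are descriptions only.

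Over the called bins, the difference between backgrounds was smallest within the hrde-1 mutant pair. Over the higher bins the median difference was 2.28 in the never mutant pair, 1.43 in the hrde-1 mutant pair, 2.46 at F5 and 2.20 at F20. Over the lower bins it was −2.15, −1.66, −2.35 and −2.42 in the same order. Over all tested bins it was 0.28, 0.04, 0.04 and 0.08. Within met-2 set-25 the hrde-1 mutant lay 0.77 log2 units below the other 3 libraries in the median over the higher bins, against 0.05 above them over all bins. These bins were called on the same 8 libraries, and whether the pairs differ was not tested.

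Higher and lower bins differed in what they overlap. In the part of the genome where bins could be named, protein-coding genes were overlapped by 156 of 161 higher bins, 96.9%, and by 70 lower bins, 58.8%, against 86.4% of all 24954 tested bins. Pseudogenes were overlapped by 1 higher bin and by 26 lower bins in 16 regions, 21.8%, against 4.89% of all bins. These lower bins include some at fbxa-191, where the match of bins to genes was not settled. Long non-coding RNA genes of the lincRNA class were overlapped by no higher bin and 9 lower bins, 7.56%, against 0.497% of all bins. Bins with no gene made up 3 of the higher bins, 1.86%, and 20 of the lower bins, 16.8%, against 4.64% of all bins. Neighbouring bins share loci, as in the 5 bins at Y54G2A.20 and the 5 at H09G03.5, so these counts are not independent. No bin over a miRNA, tRNA, rRNA, snRNA or snoRNA gene was called by limma, with 6, 8, 0, 0 and 8 higher and 3, 6, 0, 0 and 4 lower before adjustment. Over bins with annotated piRNA genes, 2 were higher and 2 lower of 2041, 0.098% each, against 0.652% higher and 0.486% lower of all tested bins.

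**Figure D3:**
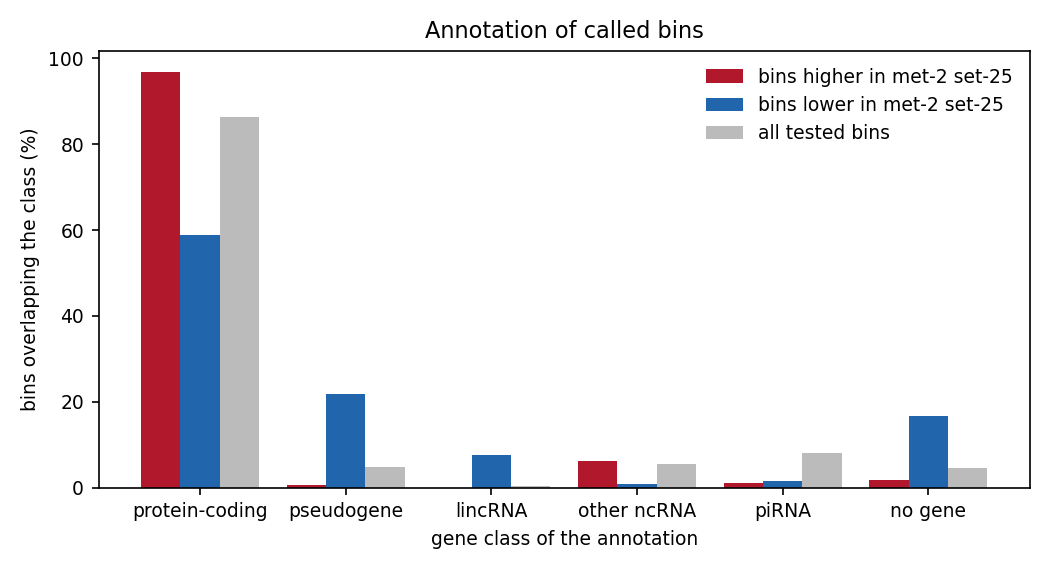
Share of the higher bins, the lower bins and all tested bins that overlap each gene class of the annotation (a bin can overlap more than 1 class). Pseudogenes, lincRNA genes and bins with no gene take 21.8%, 7.56% and 16.8% of the lower bins, each above its share of all tested bins.

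Several large gene families were counted, beside 0.652% of all tested bins called higher and 0.486% called lower, and 2265 higher and 1160 lower of 25307 before adjustment. F-box genes had 0 higher and 12 lower of 250 tested bins, 4.8% lower, with 12 higher and 40 lower before adjustment (p under 0.05). Of the 12 lower bins 10 were at fbxa-191 and fbxa-192, where the match of bins to genes was not settled. MATH and BATH domain genes had 0 higher and 7 lower of 127, 5.51% lower, with 8 higher and 21 lower before adjustment. The 7 were all on the left arm of chromosome II, at math-18, math-44, math-48, math-49 and bath-29. At math-48 (II:1946001-1947000) met-2 set-25 held 9.93, 64.1, 0.01 and 5.27 RPKM, against 56.6, 91.7, 44.2 and 63.1 RPKM in wild type. Here the met-2 set-25 hrde-1 mutant was within the wild-type range (log2 difference −2.14 ± 0.42, limma adjusted p = 0.0371). Without the F5 pair 2 lower bins of each family were called.

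Chemoreceptor genes had 3 higher, 1.22%, and 0 lower of 246 tested bins, at srh-16, sre-51 and srd-71, with 23 higher and 7 lower before adjustment. At srh-16 (V:12293001-12294000) met-2 set-25 held 65.2, 11.7, 25.2 and 38.6 RPKM, against 0, 6.48, 0 and 0 RPKM in wild type (log2 difference 2.52 ± 0.47, limma adjusted p = 0.0283). The bin at sre-51 was listed at 0 in all wild-type libraries, against 24.2, 4.69, 18.9 and 12.3 RPKM in met-2 set-25. C-type lectin genes had 2 higher and 0 lower of 89, with 12 higher and 9 lower before adjustment. Collagen genes had 2 higher and 0 lower of 126, although 8 were higher and 17 lower before adjustment and their median log2 difference was −0.41. Without the F5 pair that median was −0.22. Nuclear hormone receptor genes had 2 higher and 2 lower of 133, the lower ones both at nhr-236, with 17 higher and 8 lower before adjustment. None of the 9 higher bins of these 4 families was called without the F5 pair, other than that of col-87.

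The deposited table marks bins as GRH or GRTS without expanding the names. GRTS bins had 0 higher and 5 lower of 178 tested, 2.81% lower, against 0.486% of all tested bins. Before adjustment 2 were higher and 68 lower, where all 25307 bins had 2265 higher and 1160 lower. Their summed level was 12510, 13630, 16570 and 13710 RPKM in met-2 set-25, against 21080, 17520, 17450 and 18250 RPKM in wild type. Every met-2 set-25 sum was below every wild-type sum, and the median difference over these bins was −0.52 on the log2 scale, or −0.63 with libraries centred and −0.58 without the F5 pair. GRH bins had 1 higher, 0.529%, and 9 lower, 4.76%, of 189, with 8 higher and 40 lower before adjustment and a median difference of −0.23. Of all tested bins 0.652% were higher and 0.486% lower. Without the F5 pair 2 lower bins of each mark were called. It is not given here on which libraries the marks were set, so they are no independent evidence of a direction.

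Among the GRH bins called lower were those of eri-6, pdfr-1, T16G12.12 and ZK1055.2, and the higher one was saeg-2. At T16G12.12 (III:10055001-10056000) met-2 set-25 held 27.9, 0, 6.30 and 24.6 RPKM, against 128, 23.7, 130 and 154 RPKM in wild type. Both hrde-1 mutants were low, and the groups overlapped through that of wild type (log2 difference −2.63 ± 0.33, limma adjusted p = 0.00392). At saeg-2 (III:9240001-9241000) met-2 set-25 held 229, 124, 309 and 237 RPKM, against 141, 25.9, 44.2 and 51.4 RPKM in wild type, with overlap through N2 (log2 difference 1.88 ± 0.33, limma adjusted p = 0.0210).

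Known nuclear RNAi targets as a group had 1 higher bin, that of R03D7.2, and 0 lower of 23, with 2 higher and 8 lower before adjustment. Their summed level was 3651, 2211, 4105 and 3833 RPKM in met-2 set-25, against 5027, 2091, 4544 and 4682 RPKM in wild type. Both hrde-1 mutants were low and close to each other, and in the other 3 pairs met-2 set-25 was lower. The ERGO-1 26G siRNA targets had 0 called of 20, with 0 higher and 2 lower before adjustment. Genes of small RNA amplification and Argonautes had 0 higher and 2 lower of 157, both at eri-6, and nuclear RNAi factors had 0 called of 40, with 4 higher and 1 lower unadjusted. Histone genes, sperm genes, and oocyte and germline genes had no bin called of 73, 53 and 57 tested by limma, with 2, 0 and 5 higher and 1, 0 and 0 lower unadjusted.

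The somatic marker lists had no called bin either. Intestine markers had 0 of 36 called by limma, with 0 higher and 3 lower unadjusted, and their median difference was −2.58 in the F5 pair, against −0.48 to 0.43 in the other pairs. Muscle markers had 0 of 29, with 0 higher and 3 lower unadjusted, and hypodermis markers 0 of 8, with 0 higher and 2 lower. Neuron markers had 0 of 14, with 5 higher and 1 lower unadjusted, and summed to 288, 143, 309 and 195 RPKM in met-2 set-25, against 139, 172, 128 and 133 RPKM in wild type. The mean was higher in met-2 set-25 at unc-17 (85.2 against 21.3 RPKM), unc-119 (43.7 against 13.55) and rab-3 (32.9 against 14.4). It was lower at eat-4 (15.4 against 25.9 RPKM), flp-1 (11.5 against 18.3), egl-3 (4.01 against 10.5) and snt-1 (1.225 against 2.53). Means at unc-25, snb-1 and rgef-1 were close. The part of these cell types in the called bins was not tested.

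At the mutated genes, small RNA over met-2 summed to 52.1, 77.4, 63.0 and 62.5 RPKM in met-2 set-25, against 151, 208, 202 and 245 RPKM in wild type, with no overlap. The bin at III:8376001-8377000 was called (log2 difference −2.37 ± 0.32, limma adjusted p = 0.00566), while the other 5 met-2 bins were not, with adjusted p between 0.0601 and 0.241. Over set-25 the sums were 74.6, 68.2, 68.7 and 60.4 RPKM in met-2 set-25, against 107, 71.0, 150 and 151 RPKM in wild type, overlapping through the wild-type hrde-1 mutant, and none of its 7 tested bins was called. Where the alleles lie in these genes is not given in the sources used here.

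Heterochromatin of the autosomal arms carries most H3K9 methylation in C. elegans, and the called bins were counted in arms and centres. With X included, arms held 105 of the higher bins, 0.820% of 12802 tested, and 95 of the lower bins, 0.742%. Centres held 60 higher bins, 0.480% of 12505, and 28 lower bins, 0.224%. On the autosomes alone, 0.926% of 11342 arm bins were higher and 0.82% lower. The autosomal centres had 0.467% higher and 0.233% lower of 11999. Without the F5 pair and with X included, arms had 21 higher and 34 lower of 12856, and centres had 9 higher and 6 lower of 12828.

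The arms were not alike. The right arm of chromosome V had the highest share of lower bins, 16 of 714 or 2.24%, with 11 higher. Of these 16 bins 10 lay at fbxa-191 and fbxa-192, where the match of bins to genes was not settled. Without the bins named for those genes, an alternative chosen after seeing the data, the arm had 6 lower of 701, or 0.856%. Next came the right arm of I with 19 lower of 1149, or 1.65%, and the left arm of II with 17 lower of 1157, or 1.47%, both above that value. The left arm of chromosome I was the reverse, with 20 higher and 3 lower of 1168, and none of them was called without the F5 pair. The right arm of IV, most of which lies in the 21U-RNA (piRNA) cluster, had 8 higher, 0.354%, and 1 lower, 0.0443%, of 2257. Both shares were below the 0.652% and 0.486% of all tested bins. The 21U-RNA clusters of IV themselves had 9 higher, 0.328%, and 8 lower, 0.292%, of 2741 tested bins. Chromosome X had 4 higher bins, all in its centre, and 2 lower bins of 1966 tested, and none without the F5 pair.

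**Figure D4:**
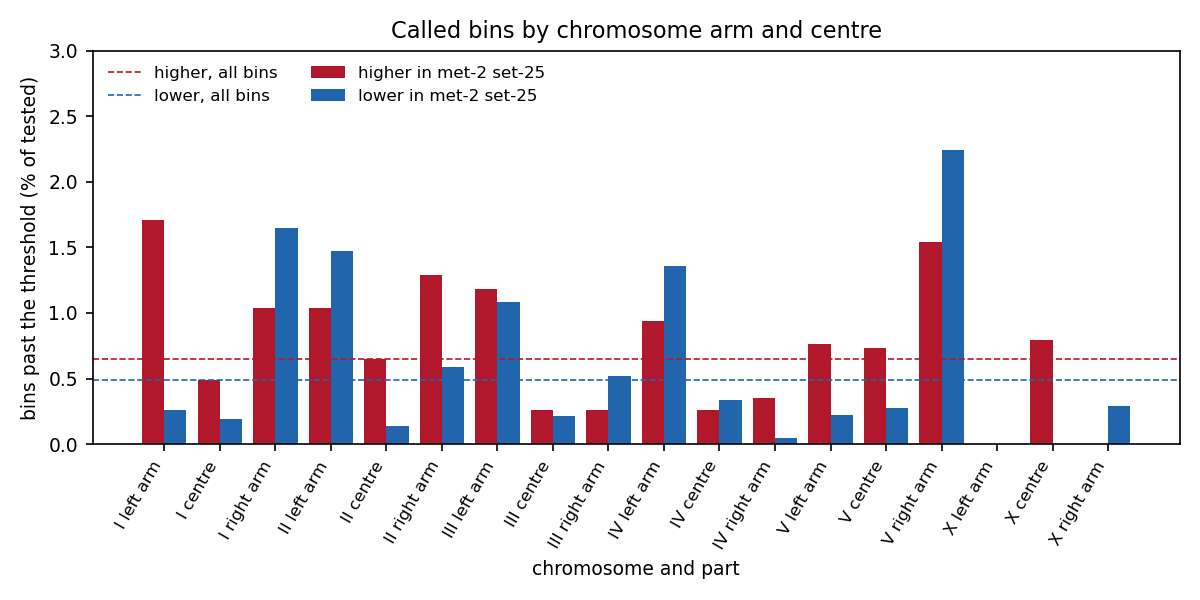
Percentage of the tested bins called higher (red) and lower (blue) in met-2 set-25, for the left arm, centre and right arm of each chromosome, with dashed lines at 0.652% and 0.486% for all bins. The right arm of V stands highest for lower bins at 2.24%, or 0.856% without fbxa-191 and fbxa-192, and the left arm of I for higher bins at 1.71%.

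The typical bin differed little in either compartment. The median difference over arm bins was 0.26 in the never mutant pair, 0.02 in the hrde-1 mutant pair, 0.05 at F5 and 0.02 at F20, a mean of 0.09 ± 0.12 (SD, n = 4 pairs; exact two-sided sign-flip permutation p = 0.125, adjusted over 3 tests 0.188). Over centre bins it was 0.30, 0.07, 0.02 and 0.16, a mean of 0.14 ± 0.12 (SD, n = 4; exact permutation p = 0.125, adjusted 0.188). The arm value minus the centre value averaged −0.05 ± 0.07 (SD, n = 4; exact permutation p = 0.250, adjusted 0.250), negative in 3 of the 4 pairs. With 4 pairs the smallest possible p is 0.125. The mean difference over arms was 0.10 without the F5 pair and −0.0251 with libraries centred, so its direction depended on the scaling.

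**Figure D5:**
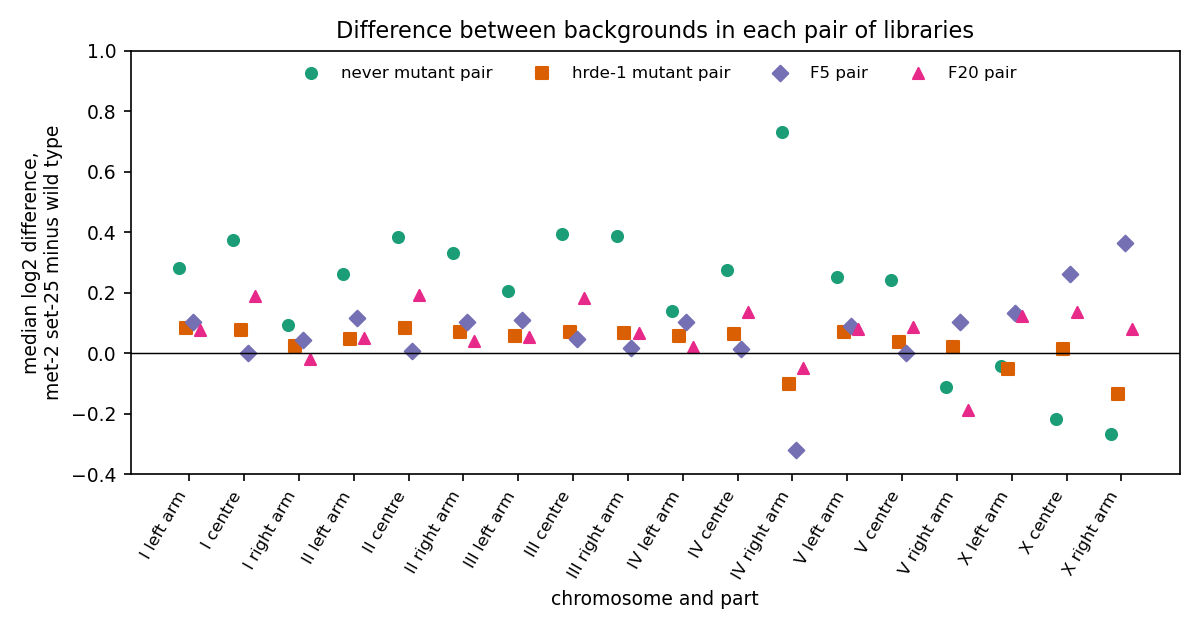
Median log2 difference, met-2 set-25 minus wild type, over the tested bins of each chromosome part, with 1 symbol for each of the 4 pairs. The right arm of IV spreads most, from −0.32 at F5 to 0.73 in the never mutant pair, and on X the never mutant pair lies below 0 and the F5 pair above it.

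The spread between pairs was widest on the right arm of chromosome IV, with medians of 0.73 in the never mutant pair, −0.10 in the hrde-1 mutant pair, −0.32 at F5 and −0.05 at F20. The summed level of the 21U-RNA clusters was 65970, 60720, 57030 and 57130 RPKM in met-2 set-25, against 47120, 63530, 58850 and 57900 RPKM in wild type. N2 was the lowest and the other wild-type libraries lay within the met-2 set-25 range. On chromosome X the pair medians were −0.19, −0.06, 0.26 and 0.11.

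To set the leading changes beside another methyltransferase background, the same met-2 set-25 libraries were compared with the 8 libraries of set-32(ok1457) and set-32(red11). Each allele had a library in the never mutant, hrde-1 mutant, early repaired and F20 states. The early repaired library was at F5 for set-32(red11) but at F8 for set-32(ok1457). In the fit the F8 library shared a block with the F5 libraries. SET-32 is a SET-domain protein that acts in nuclear RNAi. In that comparison limma called 1.51% of all bins higher and 1.5% lower. Both comparisons share the met-2 set-25 libraries, on which the loci were chosen, so the values at these loci are a description only. Of the 24 leading loci 19 were called against set-32, 11 of the 12 higher and 8 of the 12 lower. The never mutant and hrde-1 mutant libraries of both set-32 alleles summed to 138 to 178 RPKM over the intestine markers, against 5196 to 9002 RPKM in the repaired ones, and the part of this in the comparison was not tested. At C55C3.7 the log2 difference was 3.40 ± 0.31 from set-32 (limma adjusted p = 2.97e-05), beside 3.35 from wild type. At E02H9.9 it was −3.54 ± 0.37 from set-32 (limma adjusted p = 4.35e-05), beside −2.98 from wild type. At daf-7 it was −1.81 ± 0.53 from set-32 (limma adjusted p = 0.0821), beside −2.99 from wild type. At fbxa-192 the log2 difference from set-32 was −0.90 (limma adjusted p = 0.482), and its level in the 8 set-32 libraries had a median of 26.5 RPKM, ranging from 6.53 to 254 RPKM.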

How the data were processed

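The authors deposited RPKM per bin of 1000 bases, and the submitters' processing notes name Bowtie 0.12.7. What the scaling counted, the build and the treatment of repeated matches are not given in the sources used. Columns were matched to samples by the library names in the labels, and 27 other library columns were not used. Values in RPKM, as deposited, were analysed as log2(RPKM + 5), which understates changes of low bins. limma 3.58.1 (R 4.3.3; lmFit, eBayes with a trend, two-sided) was fitted with the hrde-1 state as a block to the 25307 bins that averaged 5 RPKM or more in the 8 libraries, out of 100257. Bins took their names from the WBcel235 annotation (Ensembl 115). Its exon cover followed the small RNA level best without a shift in 96 of 100 windows of 1 Mb. The correlation in these 96 windows had a median of 0.38 and was as low as 0.04, so names in the weak windows are less certain. It was 0.083 in the window that holds Y110A2AL.1. No names were given past 19 Mb of chromosome V, where 8 called bins lie. Centres were 4 to 11 Mb (I), 5 to 12 (II), 4 to 10 (III), 4 to 13 (IV), 6 to 17 (V) and 6 to 12 (X). Only 50 to 78% of low values were whole multiples of 1 read, so no count test was run. Neighbouring called bins of 1 sign formed a region. Named were the 12 largest regions in each direction with 1 sign in all pairs, 6 more in the fit without F5, the called members of each gene list and the mutated genes. The widest regions and loci with state-dependent values were chosen after their values were seen. Members and lists were chosen with earlier results of these data known. Dixon's test was used for outliers in groups of 4. The fit was tested on simulated data.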

Additional observations from a re-analysis of the deposited data

Results flagged for a closer look

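In 15 of 99 groups of 4 libraries or pairs that were checked, 1 value lay far from the other 3 by Dixon's test. Chance gives about 1 in 20, and the loci had been chosen on these libraries. Most of them involve an hrde-1 mutant library. On the log2(RPKM + 5) scale, the met-2 set-25 hrde-1 mutant was the highest of its background at Y16E11A.4 with 3.85 (others 2.32 to 2.34), at IV:6008001-6009000 with 7.19 (others 2.32 to 2.78), at R03D7.3 with 4.95 (others 2.32 to 2.38) and at daf-7 with 2.88 (others 2.32 to 2.33). The value at daf-7 is 2.35 RPKM, which is 1 read in that library, over libraries at the floor of the scale. The wild-type hrde-1 mutant was the highest of its background at madf-10 with 6.03 (others 2.32 to 2.69), at citk-1 with 6.37 (others 2.90 to 3.40) and at F52C6.14 with 7.095 (others 6.34 to 6.45). It was the lowest at daf-7 with 3.52 (others 6.05 to 6.16), at E02H9.9 with 3.22 (others 6.21 to 6.62) and at grd-16 with 2.85 (others 6.06 to 6.17). At T19A6.1 the met-2 set-25 F20 library stood out with 2.82, against 2.32 in each of the others, which is that floor.

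Among summed levels, the misanotated bins of the deposited table reached 12260 RPKM in met-2 set-25 at F5, against 7856 to 8394 RPKM in the other met-2 set-25 libraries. Oocyte and germline genes reached 3270 RPKM in the wild-type hrde-1 mutant, against 2376 to 2460 RPKM in the other wild-type libraries. Nuclear RNAi targets were at 2091 RPKM in the wild-type hrde-1 mutant, against 4544 to 5027 RPKM in the other wild-type libraries. The median difference over arm bins was 0.26 in the never mutant pair, against 0.02 to 0.05 in the other pairs.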

How the results depend on the processing

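Counts of called bins depended on the setting. The 24 leading loci were chosen for 1 sign in all pairs, so their direction under the alternatives is no sign of stability. The higher and lower counts were 47 and 42 with a pseudocount of 1, 0 and 0 without the filter on low bins (2872 and 1807 of 97426 bins at an unadjusted p under 0.05 in limma), 57 and 49 without the replicate block by hrde-1 state, and 30 and 40 without the F5 pair. Leaving out 1 pair at a time gave 28 to 264 higher bins and 25 to 156 lower bins; the lowest counts came without the F20 pair and the highest without the hrde-1 mutant pair, and the never mutant pair left out gave 94 and 84. Without a trend limma called 107 and 94, and centring on library medians gave 169 and 210, a share of 44.6% higher against 57.3% as deposited. Rescaling to equal sums gave 115 and 139, or 45.3% higher, and fitting all 16 libraries 187 and 126. Of the 24 leading loci, 18 were called with a pseudocount of 1, 0 without the filter, 19 without the block, 17 without the F5 pair, 16 without the F20 pair, 21 without the never mutant pair and 23 without the trend. The cause was not tested. The median difference over arm bins was −0.0251 when libraries were centred, against 0.09 as deposited. Arm and centre medians and their difference otherwise kept their sign under every alternative run, and none passed 0.05. The labels give no replicate numbers, so pairs rest on the hrde-1 state alone. In the shallowest library 3 reads are worth 18.9 RPKM, so levels below that are not resolved there.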

Other observations

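Pseudogenes of the Y71A12B cluster at the end of the right arm of chromosome I were called lower in met-2 set-25 in 4 regions, at Y71A12B.13, Y71A12B.15, Y71A12B.18 and Y71A12B.19, besides bins with no gene close by. One of the latter (I:13991001-13992000) held 2.48, 0, 1.05 and 3.63 RPKM in met-2 set-25, against 68.9, 15.1, 35.1 and 58.4 RPKM in wild type, with the wild-type hrde-1 mutant the lowest of its background (log2 difference −2.73 ± 0.33, limma adjusted p = 0.00326). These were chosen after their values were seen.

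The nuclear hormone receptor gene nhr-236 fell over 2 bins on the left arm of chromosome IV. Its leading bin (IV:2328001-2329000) held 1.89, 0.13, 0.01 and 0.06 RPKM in met-2 set-25, against 19.3, 32.6, 42.1 and 22.2 RPKM in wild type, with no overlap (log2 difference −2.59 ± 0.35, limma adjusted p = 0.00566; 0.0465 without the F5 pair). On chromosome X the region of largest difference lay beside gpa-12, a G protein alpha subunit gene, in a bin with no gene (X:9250001-9251000). It held 22.3, 16.4, 63.3 and 83.1 RPKM in met-2 set-25, against 0, 2.16, 24.8 and 2.44 RPKM in wild type, and the groups overlapped through F5 of wild type (log2 difference 2.20 ± 0.40, limma adjusted p = 0.0257). Both lower bins with the mark misanotated were at ttn-1, the titin gene of muscle.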
